A study of Mus musculus with 81 samples.

Results

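Treated thymic lymphomas of 12 p53+/- mice were compared with treated thymic lymphomas of 9 p53-/- mice, 21 of the 40 mice in the series. The members were chosen by the labelled tissue, genotype and treatment, and the biopsies of one mouse (31 libraries in the p53+/- group, 18 in the p53-/- group) were summed so that the mouse was the replicate. Every mouse in both groups carried Plk4(Col1a1), a doxycycline-inducible transgene, with rtTA(Rosa) and centrin-GFP(Rosa), on a C57BL/6 x 129S4Sv/Jae background. All 21 had received doxycycline for 2 weeks from day 30 of age. Background values came from lymphomas of 10 untreated p53-/- mice and normal thymuses of 8 untreated p53+/+ mice with the same transgenes. Untreated p53+/- lymphomas, and the DNA state of the second Trp53 allele, were not analysed here, so in p53+/- tumours a retained, lost or mutated allele cannot be told apart from these counts.

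The protein p53 is a transcription factor that is stabilised after DNA damage, oncogene activity or faulty mitosis. It binds a DNA element made of a pair of decamers and induces genes that stop the cell cycle (Cdkn1a), start apoptosis (Bbc3, Pmaip1, Bax) and feed back on p53 itself (Mdm2). Thymic lymphoma is the common tumour of mice without p53, and extra Plk4, the kinase that starts centriole duplication, gives cells extra centrosomes.

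Library totals ran from 3.81 to 26.87 M counts in p53+/- and from 1.03 to 19.53 M in p53-/- lymphomas. Summed per mouse they ran from 11.43 to 88.58 M (median 26.78) and from 9.48 to 63.68 M (median 13.24). Labelled males were 3 of 12 p53+/- and 4 of 9 p53-/- mice, but by Xist and Y-linked genes males were 2 of 12 and 6 of 9. The sex labels of 1 p53+/- and 2 p53-/- mice went against those genes. Multifocal tumours, biopsied in several places, were 6 of 12 and 3 of 9. The 12 T lineage markers averaged 8.30 ± 0.26 log2 CPM (SD, n = 12) in p53+/- and 8.27 ± 0.28 (SD, n = 9) in p53-/- tumours, so the labelled tissue expressed its defining genes in both groups.

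The promoters of p53 targets are shown because the target genes below are known to be induced by p53. Whether their level measures p53 activity in these tumours was not tested. RefSeq promoter windows of build GRCm38.p6 (300 bases, from 250 before to 50 after a start) were at hand for 9 of the 12 targets used. Capitals mark exact matches to the p53 decamer, whose consensus reads the same on both strands. The window at the upstream start of Cdkn1a, which encodes the cell cycle inhibitor p21, lies at chr17:29090729-29091028 on the plus strand and holds a pair of decamers 12 bases apart. Those of Mdm2, the ligase that degrades p53 (chr10:117710709-117711008, minus strand), and Ccng1, a cyclin induced by p53 (chr11:40755237-40755536, minus strand), hold 1 decamer each.
Cdkn1a: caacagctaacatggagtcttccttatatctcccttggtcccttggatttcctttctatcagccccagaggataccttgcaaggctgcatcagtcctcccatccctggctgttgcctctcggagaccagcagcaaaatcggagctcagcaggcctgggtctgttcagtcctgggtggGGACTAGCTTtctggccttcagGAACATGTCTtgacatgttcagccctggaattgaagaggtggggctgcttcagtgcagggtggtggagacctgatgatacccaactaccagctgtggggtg
Mdm2: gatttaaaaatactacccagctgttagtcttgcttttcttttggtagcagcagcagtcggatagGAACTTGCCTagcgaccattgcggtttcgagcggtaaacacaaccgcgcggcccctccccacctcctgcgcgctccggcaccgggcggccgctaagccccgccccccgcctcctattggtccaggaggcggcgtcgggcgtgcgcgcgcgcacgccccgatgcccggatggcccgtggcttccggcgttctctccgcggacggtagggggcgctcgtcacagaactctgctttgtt
Ccng1: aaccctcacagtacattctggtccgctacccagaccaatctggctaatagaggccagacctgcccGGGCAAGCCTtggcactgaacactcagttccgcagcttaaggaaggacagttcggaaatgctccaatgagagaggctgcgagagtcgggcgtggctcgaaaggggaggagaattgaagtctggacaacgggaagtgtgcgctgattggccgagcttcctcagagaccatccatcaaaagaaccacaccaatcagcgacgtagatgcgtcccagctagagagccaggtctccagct
Of 32851 promoter windows, 8.36% held a decamer and 0.0731% a pair with at most 13 bases between. The 9 targets had 13 windows and were counted by gene, where 5 had a decamer in any window and 1, Cdkn1a, a pair. A gene with several windows has more chances of a match, so these counts and the shares per window are not directly comparable. A match is a description of these letters, not a measured binding site.

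No gene passed the test between the genotypes. In the edgeR quasi-likelihood test, 0 of 16389 genes (0.0%) had a Benjamini-Hochberg adjusted p under 0.05. At an unadjusted p under 0.05 there were 864 genes (5.27%), of which 547 were higher (3.34% of those tested) and 317 lower (1.93%) in p53+/- tumours. The median log2 fold change over all genes, p53+/- over p53-/-, was 0.03, and 8833 of 16389 genes (53.9%) were positive. The shares for the lists below are read beside these values. No gene (0.0%) had 12 p53+/- values that did not overlap the 9 p53-/- values. DESeq2 called 22 genes (0.0704% of those it tested) and voom over single biopsies called 1 (0.00605%), Xist. In counts simulated for 16078 genes at this design, the test recovered 62 of 100 genes changed 2-fold and 91 of 100 changed 4-fold, with 5 false calls. The changed genes were drawn from all but the lowest-expressed genes, and no sex effect or outlying tumour was simulated. Recovery of genes of low expression was thus not measured. With 0 genes called, values below with an unadjusted p are descriptions, none of which passed adjustment.

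Trp53 (ENSMUSG00000059552, GRCm38 chromosome 11, 69580359 to 69591873) did not pass the test. Its log2 CPM (a log scale on which library size has been divided out, with 2 as the prior count) had a lowest value of 4.15, a median of 5.32 and a highest of 6.15 in p53+/- tumours. In p53-/- tumours these were 4.68, 5.47 and 6.21, and normal thymuses ran from 6.09 to 6.74. The groups overlapped almost wholly, and the log2 fold change was -0.10 (SE 0.25, edgeR unadjusted p = 0.691). Gene counts do not show which exons were read, so RNA of a deleted and of an intact allele cannot be told apart. Cdkn2a, which encodes p16INK4a and the p53 activator p19ARF, reached a lowest value of 6.28, a median of 7.75 and a highest of 8.91 log2 CPM in p53+/- and 6.42, 7.76 and 8.82 in p53-/- tumours. Normal thymuses lay between -0.31 and 2.01, below every tumour of either genotype. Of 21 tested genes of the p53 family and its regulators 0 had an unadjusted p under 0.05, and the median log2 fold change was -0.10.

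The p53 target score, the mean log2 CPM of 12 genes induced by p53, was 4.15 ± 0.12 (SD, n = 12) in p53+/- and 3.76 ± 0.29 (SD, n = 9) in p53-/- tumours. The p53+/- values ran from 3.96 through a median of 4.14 to 4.36, and the p53-/- values from 3.12 through 3.79 to 4.13. Of the p53+/- mice 6 of 12 lay above every treated p53-/- mouse, and 7 of 9 p53-/- mice lay below every p53+/- mouse. Untreated p53-/- tumours spanned 3.63 to 4.47 and so covered the whole p53+/- range. The highest score of any tumour, 4.47, was that of untreated p53-/- mouse 562, so scores this high also occur without p53. Normal thymuses ran from 4.45 to 5.20, and the score of all 12 p53+/- and all 9 treated p53-/- tumours was below that range.

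**Figure D1:**
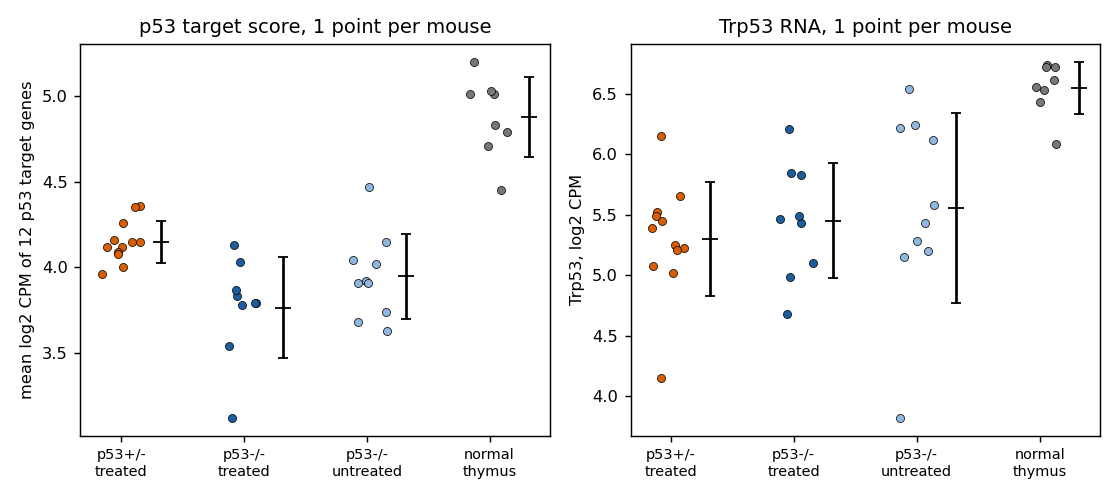
The p53 target score (left) and Trp53 RNA (right) in log2 CPM, 1 point per mouse, with the mean and SD beside each group. The treated p53+/- scores sit between 3.96 and 4.36, and treated p53-/- scores reach down to 3.12, while Trp53 overlaps in all lymphoma groups.

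Bbc3, Eda2r and Pmaip1, the 3 genes with the largest gaps and so named after their values were seen, made up 72.9% of the score difference, and the difference of means of the other 9 genes was between -0.12 and 0.52. Bbc3 (ENSMUSG00000002083, chromosome 7, 16308393 to 16318205) encodes PUMA, a BH3-only protein that triggers apoptosis. It ran from 0.85 through a median of 3.13 to 5.21 log2 CPM in p53+/- and from -0.47 through 1.04 to 3.28 in p53-/- tumours. The p53-/- values fell in a low and a high cluster and 4 of 9 lay below every p53+/- mouse, with a log2 fold change of 1.32 (SE 0.60, edgeR unadjusted p = 0.0351, adjusted p = 0.94). Untreated p53-/- tumours ran from 1.01 to 3.98 and normal thymuses from 2.92 to 5.29.

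Pmaip1 (ENSMUSG00000024521), which encodes the BH3-only protein NOXA, ran from 0.10 through 2.39 to 5.93 log2 CPM in p53+/- and from -0.09 through 1.73 to 2.37 in p53-/- tumours. Its spread was wide in p53+/- tumours, where 6 of 12 lay above every treated p53-/- mouse. Another 3 (0.10, 0.38 and 0.74) lay below every treated p53-/- mouse but 857. In untreated p53-/- tumours Pmaip1 ran from 0.56 through 2.37 to 3.71. The edgeR log2 fold change was 1.59 (SE 0.61, edgeR unadjusted p = 0.0135, adjusted p = 0.934), and 0.52 among tumours with a single biopsy, where that of Bbc3 was 2.47. For Pmaip1 the top value, 5.93, was that of p53+/- mouse 862, and the next highest was 3.66. The difference of mean log2 CPM was 0.70, and the voom log2 fold change was 0.97. Eda2r, an X-linked receptor of the TNF receptor family, had only 2 to 37 counts per p53+/- mouse and 0 to 7 per p53-/- mouse and was left out of the edgeR test. DESeq2 gave it a log2 fold change of 1.66 with an adjusted p of 0.687. In log2 CPM 10 of 12 p53+/- mice lay above every p53-/- mouse. Its part in a difference tied to the unequal sexes of the groups was not tested, and levels of X-linked genes as a whole are given below.

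Cdkn1a (ENSMUSG00000023067, chromosome 17, 29090976 to 29100727) ran from 2.72 through 3.92 to 5.94 log2 CPM in p53+/- and from 2.67 through 3.14 to 4.81 in p53-/- tumours. Normal thymuses ran from 4.81 to 5.91, and 2 of 12 p53+/- and 1 of 9 p53-/- tumours reached that range. The log2 fold change was 0.69 (SE 0.44, edgeR unadjusted p = 0.121). Mdm2, with a decamer in its promoter window above, differed by 0.15 (SE 0.13, edgeR unadjusted p = 0.26). Trp53inp1, which promotes p53-dependent death and autophagy, differed by 0.48 (SE 0.40, unadjusted p = 0.239). Bax, the apoptosis effector, differed by 0.13, the nuclease gene Aen by -0.01 and Ccng1 by -0.02. Phlda3, an inhibitor of Akt, and Ccng1 stayed below every normal thymus in all 12 p53+/- and all 9 p53-/- tumours. Of the 11 targets tested 2 had an unadjusted p under 0.05, both higher in p53+/-, and 9 had a positive log2 fold change, with a median of 0.16 against 0.03 over all genes. In shares these were 18.2% at an unadjusted p under 0.05 (5.27% of all genes) and 81.8% positive (53.9% of all genes).

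**Figure D2:**
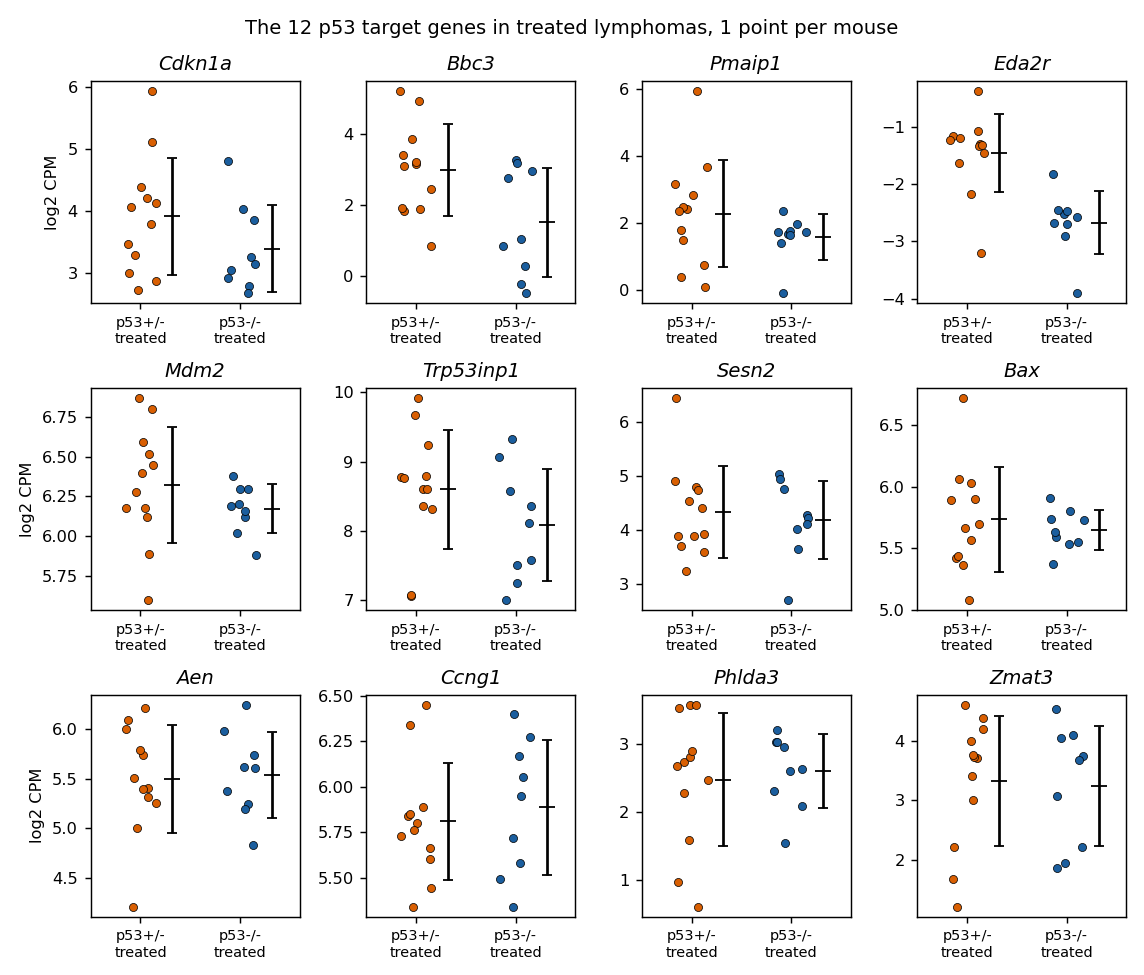
Log2 CPM of the 12 p53 targets in treated lymphomas, 1 point per mouse, with mean and SD beside each group; axes differ between genes. Bbc3, Pmaip1 and Eda2r have the largest gaps, and Ccng1, Aen, Phlda3 and Zmat3 overlap almost wholly.

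A further list of p53 targets had 2 of 29 tested members (6.9%, against 5.27% of all genes) at an unadjusted p under 0.05, both higher in p53+/-, and a median log2 fold change of 0.14. Plk3, a stress kinase, ran from 1.63 through 2.68 to 4.04 log2 CPM in p53+/- and from 0.34 through 1.79 to 3.26 in p53-/- tumours (log2 fold change 0.79, SE 0.37, edgeR unadjusted p = 0.0388). Tap1, the peptide transporter of antigen presentation, ran from 5.98 through 6.76 to 7.52 and from 6.11 through 6.45 to 6.66 (log2 fold change 0.38, SE 0.19, edgeR unadjusted p = 0.0467). For Tap1, 9 of 12 p53+/- mice lay above every treated p53-/- mouse. In untreated p53-/- tumours Plk3 ran from 0.77 through 2.61 to 3.62 and Tap1 from 6.19 through 6.83 to 7.59. Of the 25 cell cycle genes that p53 lowers through p21 and the DREAM complex, 0 had an unadjusted p under 0.05. Their mean level was 7.40 ± 0.19 (SD, n = 12) and 7.40 ± 0.24 log2 CPM (SD, n = 9). The PIDDosome list, which relays extra centrosomes to p53, had 0 of 7.

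Among multifocal tumours the score was measured in several biopsies of the same tumour. In the 6 p53+/- tumours (25 biopsies) the range within a tumour was 0.07 to 0.50, and in the 3 p53-/- tumours (12 biopsies) 0.35 to 0.43. The lowest biopsies were those of p53-/- mouse 857, from 2.85 to 3.20, with libraries of 1.03 to 5.03 M counts.

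The Bcl2 family, which sets the threshold for apoptosis, had 4 of 17 tested members (23.5%) at an unadjusted p under 0.05, against 5.27% of all genes, all of them higher in p53+/-, with a median log2 fold change of 0.15. Besides Bbc3 and Pmaip1, which promote death, these were Bcl2 and Mcl1, which block it. Bcl2 ran from 2.61 through 4.30 to 5.74 log2 CPM in p53+/- and from 2.05 through 3.03 to 4.70 in p53-/- tumours (log2 fold change 1.21, SE 0.46, edgeR unadjusted p = 0.0136). Mcl1 ran from 7.69 through 7.95 to 8.34 and from 7.04 through 7.68 to 7.90 (log2 fold change 0.33, SE 0.14, edgeR unadjusted p = 0.0274). For Mcl1 8 of 12 p53+/- mice lay above every treated p53-/- mouse, and 11 of 12 p53+/- and all 9 treated p53-/- tumours lay below every normal thymus (8.10 to 8.69). In untreated p53-/- tumours Bcl2 ran from 1.64 through 3.76 to 6.14 and Mcl1 from 7.25 through 7.80 to 8.57. The list mean was 3.68 ± 0.35 (SD, n = 12) in p53+/- and 3.45 ± 0.37 (SD, n = 9) in treated p53-/- tumours. Untreated p53-/- tumours averaged 3.75 ± 0.40 (SD, n = 10).

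In the Notch list, a pathway often active in thymic lymphoma, 0 of 14 members had an unadjusted p under 0.05. Notch1 itself spanned 4.43 to 10.53 in p53+/- and 7.03 to 11.17 in p53-/- tumours, with medians of 9.82 and 9.68. Its target Heyl had medians of 5.43 and 3.50 (log2 fold change 1.43, SE 0.77, edgeR unadjusted p = 0.0732). In the list of T lymphoma suppressors and oncogenes 0 of 14 members had an unadjusted p under 0.05, and in the lists of G1 cyclins and kinases and of INK4, CIP/KIP and Rb genes 0 of 8 and 0 of 10.

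In the PI3K, Akt and mTOR list 2 of 20 members had, beside 5.27% of all genes, an unadjusted p under 0.05, and the median log2 fold change was 0.19. Deptor, an inhibitor of mTOR, ran from 2.58 through 3.90 to 6.95 log2 CPM in p53+/- and from 1.70 through 2.39 to 4.36 in p53-/- tumours (log2 fold change 1.77, SE 0.64, edgeR unadjusted p = 0.00989). The kinase Akt2 had medians of 6.98 and 6.54 (log2 fold change 0.32, SE 0.12, edgeR unadjusted p = 0.013), and 8 of 12 p53+/- mice lay above every treated p53-/- mouse. The medians in untreated p53-/- tumours were 3.01 for Deptor and 6.53 for Akt2. The list mean was 6.11 ± 0.22 (SD, n = 12) in p53+/- and 5.86 ± 0.29 (SD, n = 9) in treated p53-/- tumours. Untreated p53-/- tumours averaged 6.10 ± 0.12 (SD, n = 10).

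Interferon-stimulated genes had the highest median log2 fold change of the 16 pathway lists, 0.45, with 18 of 22 positive (81.8%, against 53.9% of all genes) and 3 at an unadjusted p under 0.05 (13.6%, against 5.27%). Irf7, the master regulator of the interferon response, ran from 2.57 through 4.60 to 6.47 log2 CPM in p53+/- and from 3.02 through 3.95 to 4.67 in p53-/- tumours (log2 fold change 1.13, SE 0.46, edgeR unadjusted p = 0.0194). The other 2 were Rtp4 (0.85) and Tmem173, which encodes STING (0.65). The list mean ran from 2.80 to 4.86 log2 CPM in p53+/- and from 2.84 to 3.91 in treated p53-/- tumours. It averaged 3.77 ± 0.76 (SD, n = 12) and 3.55 ± 0.34 (SD, n = 9), and 3.62 ± 0.64 (SD, n = 10) in untreated p53-/- tumours. In the list for MHC class I presentation, which shows peptides to T cells, 10 of 11 members were positive (90.9%), with a median of 0.38 and 2 at an unadjusted p under 0.05 (18.2%). B2m, the light chain of class I, ran from 8.63 through 9.23 to 10.46 and from 8.23 through 8.85 to 9.23 (log2 fold change 0.72, SE 0.25, edgeR unadjusted p = 0.00639). In untreated p53-/- tumours B2m ran from 8.15 through 9.53 to 10.49. The class I list mean was 7.11 ± 0.42 (SD, n = 12) in p53+/- and 6.89 ± 0.10 (SD, n = 9) in treated p53-/- tumours. Untreated p53-/- tumours averaged 7.22 ± 0.44 (SD, n = 10), so the higher level was not particular to p53+/-.

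Markers of other cell types were read beside these lists. Of 10 B lineage markers 9 were positive (median 1.05), and their summed level ran from 12.3 through a median of 32.2 to 150.0 CPM in p53+/- and from 22.3 through 27.9 to 74.9 CPM in p53-/- tumours. Immunoglobulin constant-region genes and Jchain, products of antibody-secreting cells, were added after the data were seen. All 12 tested were positive (median 2.02), and Igha, Ighg1, Ighg2b, Ighg2c, Igkc and Jchain had an unadjusted p under 0.05. Their summed level ran from 139 through a median of 1100 to 5740 CPM in p53+/- and from 175 through 545 to 1330 CPM in p53-/- tumours, and 4 of 12 p53+/- mice lay above and 2 below every p53-/- mouse. Of 14 macrophage and myeloid markers 10 were positive (median 0.25), and C1qa and C1qc had an unadjusted p under 0.05. Their summed level ran from 669 through a median of 1010 to 2340 CPM in p53+/- and from 536 through 1040 to 1660 CPM in p53-/- tumours. All 5 tested NK and cytotoxic markers were positive (median 0.76), with sums from 76.3 through a median of 168 to 1170 CPM in p53+/- and from 63.1 through 193 to 430 CPM in p53-/- tumours. The median sums of the NK and myeloid lists were thus lower in p53+/-, while their highest mice were p53+/-. The remaining marker lists had median log2 fold changes of -0.50 for endothelial (5 of 7 negative), -0.37 for erythroid (5 of 6), -0.31 for thymic epithelium (8 of 9) and -0.06 for stroma markers (5 of 9), while fat markers had 0.27 (5 of 6 positive). No marker of the B lineage, myeloid and NK lists was at 0 in all 21 mice. Their part in the interferon and class I values was not tested, and in bulk tissue fewer cells of a type and less RNA per cell cannot be told apart.

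**Figure D3:**
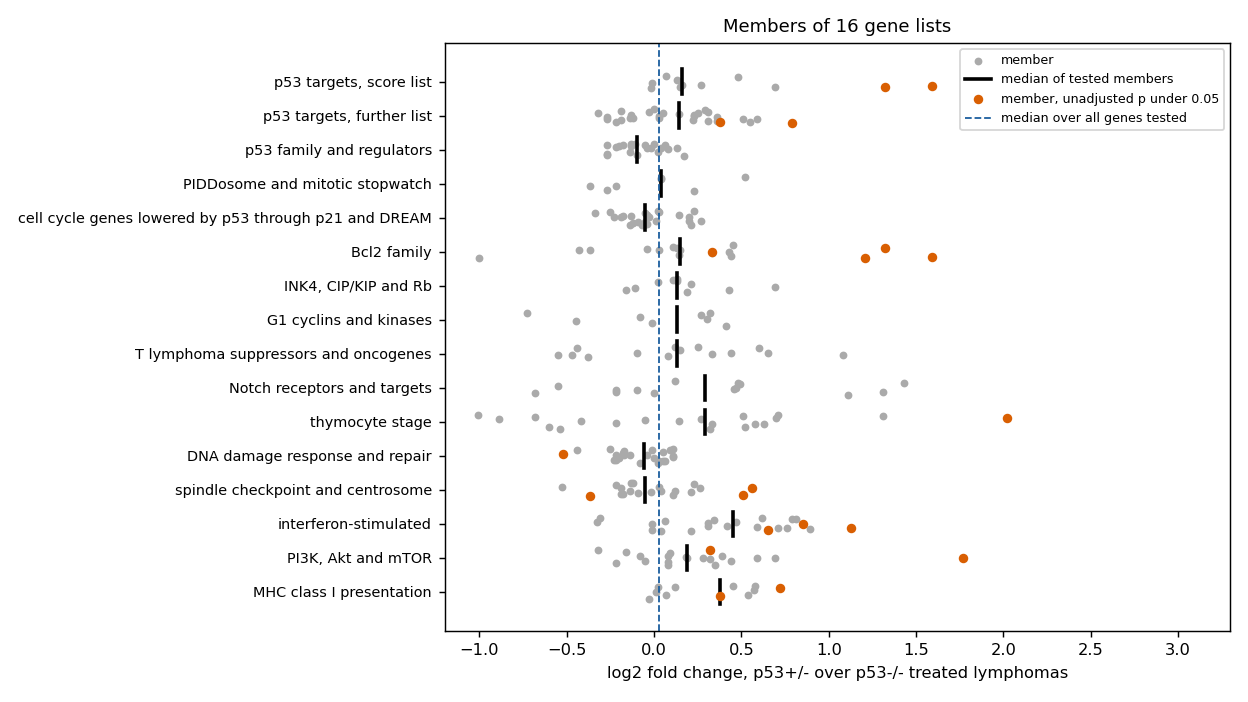
Log2 fold change, p53+/- over p53-/-, of each tested member of the 16 pathway lists; black bars are list medians, orange points have an unadjusted p under 0.05 and the dashed line is the median over all genes. Interferon and class I lists have the highest medians, 0.45 and 0.38.

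In the spindle checkpoint and centrosome list 3 of 20 members (15.0%, against 5.27% of all genes) had an unadjusted p under 0.05, 2 higher and 1 lower in p53+/-. Ttk, the kinase MPS1 of the spindle checkpoint, ran from 4.87 through 5.26 to 5.65 log2 CPM in p53+/- and from 5.24 through 5.47 to 6.21 in p53-/- tumours (log2 fold change -0.37, SE 0.15, edgeR unadjusted p = 0.0183). Stil, a partner of Plk4 in centriole assembly, had medians of 6.38 and 6.05 (log2 fold change 0.51, SE 0.23, edgeR unadjusted p = 0.0312). Cetn2, a centrin on chromosome X, had medians of 6.16 and 5.51 (log2 fold change 0.56, SE 0.19, edgeR unadjusted p = 0.00543). Plk4 had medians of 6.00 and 6.16 and a log2 fold change of 0.04 (SE 0.14), and gene counts add transgene to endogenous RNA. The labels do not say which centrin the GFP reporter carries, so reporter RNA within the Cetn2 count cannot be told apart either. In the list for DNA damage response and repair 1 of 24 had an unadjusted p under 0.05. That gene, Prkdc, the catalytic subunit of DNA-PK, had medians of 5.01 and 5.49 (log2 fold change -0.52, SE 0.25, edgeR unadjusted p = 0.0488).

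**Figure D4:**
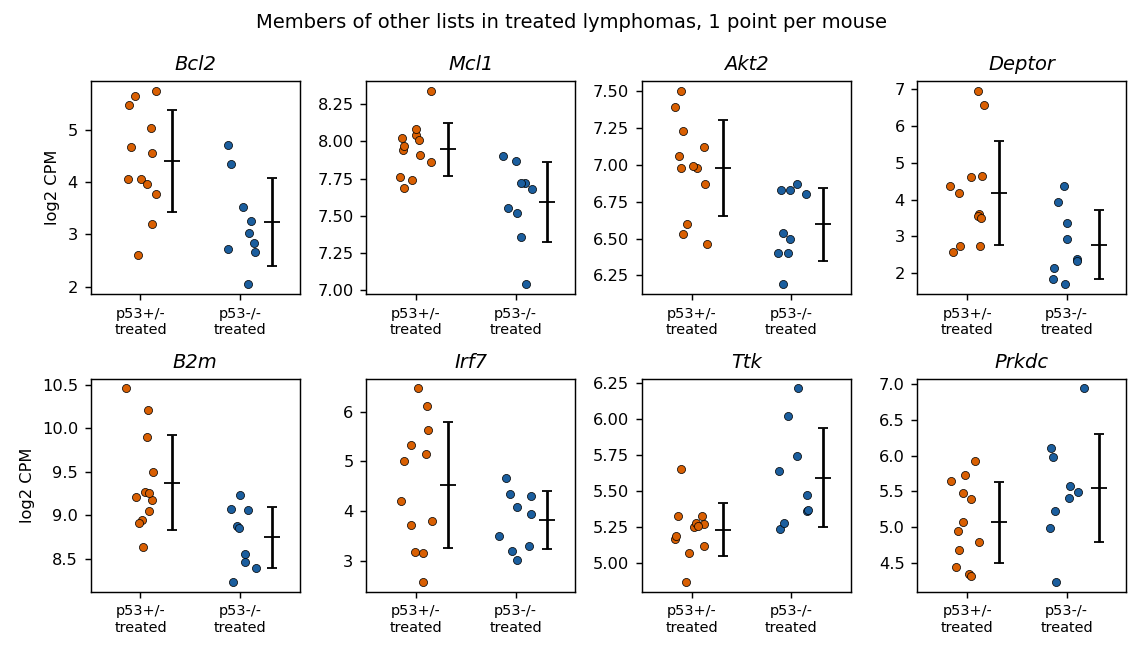
Log2 CPM of 8 members of the other lists in treated lymphomas, 1 point per mouse, with mean and SD beside each group; axes differ between genes. The median of Bcl2 is 4.30 in p53+/- and 3.03 in p53-/- mice, and in each of the 8 genes the groups overlap.

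Outside the lists, genes were named by the smallest p in each direction among those whose edgeR average over all tumours of the fit was 2 or more on a log2 CPM scale, a value that a few very high mice can set. In the higher direction these were AC124744.2 (log2 fold change 0.78), Rps12l1 (0.72), Atp6ap1 (0.51), Sh3kbp1 (1.35), H2-Q4 (0.85) and Gm12840 (4.23). In the lower direction they were Gm13456 (-1.73), Rnd2 (-3.02), Gm9347 (-3.31), Mtrr (-0.70), Gm10184 (-0.99) and Purb (-0.57). Each had an edgeR adjusted p of 0.934. Some of these folds rested on a few mice or moved widely between settings. Gm9347 was high in p53-/- mice 869 and 870 (4.52 and 5.41 log2 CPM), with the other 19 treated mice at 0.13 or below, and reached 4.81 in untreated p53-/- tumours, and its fold ran from -4.52 to 0.16 over the alternatives. Gm13456 had medians of 5.59 and 5.68 in p53+/- and p53-/- tumours, and its fold ran from -2.32 to -0.73. Rnd2 had 3 of 9 p53-/- mice above every p53+/- mouse and a fold from -3.88 to -0.60. Gm12840 had medians of 0.76 and 0.84 and a fold from 1.15 to 4.99. AC124744.2, Rps12l1 and H2-Q4 belong to families of near copies among which reads can be split, so their values are uncertain. H2-Q4, a class Ib gene, ran from 5.76 to 7.25 log2 CPM in p53+/- and from 5.14 to 6.32 in treated p53-/- tumours. For H2-Q4, 9 of 12 p53+/- mice lay above every treated p53-/- mouse, but untreated p53-/- tumours ran from 5.07 to 7.30. Slc18a2, the vesicular monoamine transporter, was called by DESeq2 and ran from 0.27 through 0.98 to 1.79 in p53+/- and from 1.26 through 2.06 to 3.46 in p53-/- tumours. Its log2 fold change was -1.18 (SE 0.26) with an edgeR adjusted p of 0.682 and a DESeq2 adjusted p of 0.00202, and 7 of 9 p53-/- mice lay above every p53+/- mouse.

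Genes were next counted by position. On chromosome X 100 of 534 tested genes (18.7%) had an unadjusted p under 0.05, 92 of them higher in p53+/-, against 752 of 15795 on the autosomes (4.76%). With sex taken from expression the numbers were 46 of 534 (8.61%) and 683 of 15795 (4.32%). Without the sex-discordant mice they were 38 of 540 (7.04%) and 808 of 16014 (5.05%), and among single-biopsy tumours 30 of 498 (6.02%) and 746 of 14954 (4.99%). In the same order, from all mice with labelled sex to single-biopsy tumours, the median log2 fold change on X was 0.28, 0.19, 0.18 and 0.20. On the autosomes it was 0.02, 0.04, 0.04 and 0.03. The median level of 502 X-linked genes relative to normal thymus was 0.25 ± 0.32 (SD, n = 12) in p53+/- and -0.04 ± 0.27 (SD, n = 9) in p53-/- tumours, a difference of 0.29 (exact two-sided permutation p = 0.0439, not adjusted). Among mice female by expression (10 and 3) it was 0.29 ± 0.32 and 0.23 ± 0.32, a difference of 0.06 (exact permutation p = 0.769). Among mice male by expression (2 and 6) it was 0.01 ± 0.24 and -0.18 ± 0.12, a difference of 0.19 that was not tested. Sex and genotype overlap in these groups, and Eda2r, Cetn2, Atp6ap1 and Sh3kbp1 are all on X.

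None of the 19 autosomes passed the test between the genotypes. The measure was the median log2 ratio to normal thymus over the genes of a chromosome, centred in each mouse, and the exact two-sided permutation test over 293930 splits was adjusted over the 19. The smallest p was that of chromosome 9, at -0.11 ± 0.10 (SD, n = 12) and 0.04 ± 0.20 (SD, n = 9) (exact permutation p = 0.0288, adjusted 0.548). Chromosome 11, which carries Trp53, was at 0.02 ± 0.17 (SD, n = 12) and 0.16 ± 0.20 (SD, n = 9) (exact permutation p = 0.112, adjusted 0.597). Of its 1323 tested genes 73 (5.52%) had an unadjusted p under 0.05, 54 of them lower in p53+/-. Among single-biopsy tumours 80 of 87 such genes were lower, and on chromosome 16 there were 60 such genes of 466 (12.9%), 56 of them lower, against 23 of 487 (4.72%) over all mice. Among labelled females (9 and 5 mice) the difference of the chromosome 11 level was 0.00, and 2 of these 5 p53-/- mice were male by expression. It was -0.13 over all mice, -0.17 without the sex-discordant mice and -0.19 among single-biopsy tumours. In the remaining settings it was -0.13 to -0.11. Both genotype means were above 0.25 on chromosomes 4, 5, 14 and 15 and below -0.25 on chromosomes 6, 7 and 19, a limit chosen after the values were seen.

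**Figure D5:**
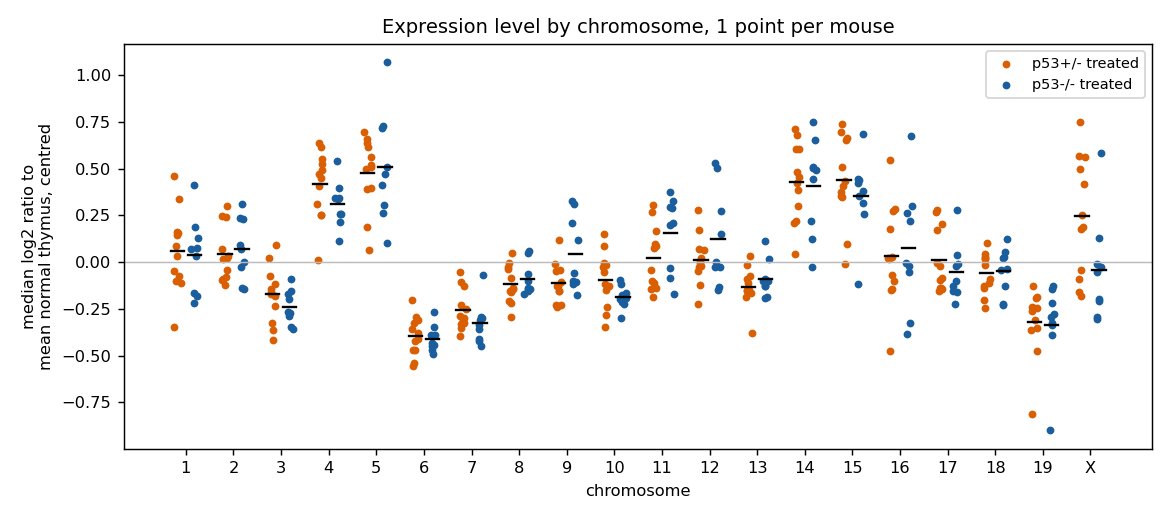
Median log2 ratio to normal thymus per chromosome, centred on the autosomal median, 1 point per mouse, with group means as bars. On every autosome the genotypes overlap, and the widest gap in means is on X.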

How the data were processed

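RNA sequencing of frozen thymic tissue was deposited by the authors as a table of expected counts per gene (RSEM estimates, not scaled between libraries). The submitters' processing notes name CASAVA 1.8, fastp, STAR 2.7.2b, RSEM 1.1.17 and build mm10. Strandedness is not given in the sources used here. Expected counts were rounded and summed per mouse. Coordinates came from GENCODE M21 (99.63% of IDs matched). Tests used edgeR 4.0.16 in R 4.3.3 (TMM factors, filterByExpr, robust quasi-likelihood) on the 3 lymphoma groups with labelled sex as covariate. DESeq2 1.42.0 and limma 3.58.1 (voom, mouse as block) were alternatives. Single measures used exact permutation tests. The code was tested on simulated data. The members and lists were chosen with earlier results of these data known. Genes named were a fixed list, the 6 smallest p in each direction (mean log2 CPM of at least 2), up to 12 genes called by DESeq2 or voom, and up to 3 per list, leaving out receptor segments, Xist and Y-linked genes. The replicates are separate mice, per the labels. Results for some genes are not reported here.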

Additional observations from a re-analysis of the deposited data

Results flagged for a closer look

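Among the 9 treated p53-/- mice, 125 measures (named genes, list means and chromosome levels) were examined for a single mouse far from the others, by Dixon's criterion on the gap to the nearest other mouse. Were the measures independent, chance would flag about 1 in 20, or 6.2 here, and 11 were found. The measures overlap and some genes were chosen from these same data, so 11 is not read as an excess over chance. Mouse 857 was low in Pmaip1 (-0.09 log2 CPM, the others 1.41 to 2.37), Ccr7 (0.57, the others 2.16 to 3.73) and Cd69 (-3.90, the others 0.82 to 3.47). In mouse 857 these rested on 8, 13 and 0 counts, and -3.90 is the value that 0 counts take on this scale. Mouse 869 was low in Notch1 (7.03, the others 9.26 to 11.17) and high in Ikzf1 (10.21, the others 8.99 to 9.54). Mouse 497 was low in Pidd1 (4.40) and Erg (-0.33). Mouse 663 was high in the PIDDosome list (5.57) and on chromosome 7 (-0.07, the others -0.45 to -0.29) and low on chromosome 19 (-0.90, the others -0.39 to -0.13). Mouse 653 was high on chromosome X (0.58, the others -0.30 to 0.13).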

How the results depend on the processing

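The count of called genes was 0 in all 33 alternative edgeR fits, of which 21 left out 1 mouse each (0 to 0 genes), and 22 with DESeq2 and 1 with voom. Genes at an unadjusted p under 0.05 numbered 557 to 2411 over the edgeR fits, the highest without a low-count filter. The median log2 fold change of the p53 score list was 0.08 to 0.24 over 14 alternatives and 0.12 to 0.30 with 1 mouse left out. The p53 score difference, 0.39 as reported, was 0.31 (without p53-/- mouse 857) to 0.43 (without p53-/- mouse 869) with 1 mouse left out. With other scaling, priors, gene lists or subsets of mice it was 0.29 (without Bbc3) to 0.45 (without the sex-discordant mice). Without Eda2r, Bbc3 and Pmaip1, a choice made after seeing the data, it was 0.14, and without Eda2r among mice female by expression, also chosen then, it was 0.37. No autosome passed under any of 6 alternatives. Of 2797 recomputed values of 80 named genes, 84 (in 14 genes) took the other sign with no call either way, and 6 became calls, all with DESeq2 and with the same sign. The mouse numbers are not shared between the genotypes, and no paired analysis was possible because each mouse belongs to 1 group. Over the alternatives the log2 fold change was 1.03 to 2.47 for Bbc3, 0.52 to 1.69 for Pmaip1, 0.74 to 1.46 for Bcl2, 0.84 to 2.08 for Deptor, 0.39 to 1.02 for Plk3, 0.78 to 1.38 for Irf7, 0.45 to 1.03 for Rtp4, 0.22 to 0.82 for Tmem173, 0.46 to 0.80 for B2m, 0.26 to 0.45 for Tap1, 0.25 to 0.40 for Akt2, 0.36 to 0.79 for Stil, 0.39 to 0.97 for Cdkn1a, 0.28 to 0.69 for Trp53inp1, 0.94 to 2.03 for Heyl, -0.45 to -0.24 for Ttk and -1.06 to -0.32 for Prkdc. Depth limits genes such as Eda2r, with at most 37 counts in a mouse.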

Other observations

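Of the 22 genes called by DESeq2, 4 were Y-linked and 10 were not tested by edgeR because of low counts. Of the 22, 7 had fewer than 10 counts in every one of the 21 mice. Eno1b ran from 2.95 through 7.25 to 9.91 log2 CPM in p53+/- and from 1.63 through 3.87 to 6.87 in p53-/- tumours.

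Mitochondrial genes made up 2.43% ± 1.36 of counts (SD, n = 12) in p53+/- tumours, from 0.835 to 5.98%, and 1.72% ± 0.468 (SD, n = 9) in p53-/- tumours, from 0.682 to 2.30%, against 3.85 to 13.1% in normal thymus. The difference of means was 0.712 percentage points (exact two-sided permutation p = 0.145). Of 23 tested mitochondrial genes 6 (26.1%, against 5.27% of all genes) had an unadjusted p under 0.05, all higher in p53+/-, with a median log2 fold change of 0.77. Among single-biopsy tumours it was 2 of 23 (8.7%), with a median log2 fold change of 0.87. The difference in the mean share of counts there (6 and 6 mice) was 1.14 percentage points (exact two-sided permutation p = 0.117).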
